A study of Mus musculus with 40 samples.

Results

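The samples described here are motor neurons derived from mouse embryonic stem (ES) cells and collected from co-cultures with ES-astrocytes that had been given IL-1β and IL-6. They were chosen by their titles, which give 4 samples, replicates A to D, set against the 4 motor neuron control samples, among 40 samples in the series of which 20 are motor neurons. Motor neurons from co-cultures given IL-1α with TNF-α, C1Q with C5, or TGF-β2 enter later comparisons. ES-astrocytes given IL-1β with IL-6 or control medium do so too. All genes were taken, so no gene list decided what was compared.

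Both cell types came from ES cells of a mouse line, B6.Cg-Tg(Hlxb9-GFP)1Tmj/J by strain, which carries eGFP under the Hb9 (Mnx1) promoter. ES-astrocytes were matured with forskolin in medium with serum, and then received IL-1β with IL-6, or control medium, for 24 h. The eGFP-positive motor neurons were seeded on top afterwards, so the cytokines were given to the ES-astrocytes first. The study notes that some added cytokine could still have been in the medium when the neurons were plated. It calls that risk small and likely negligible, because the factors have short half-lives. Direct exposure of the neurons was not tested here. After co-culture about 200 sorted cells made 1 library, and a biological replicate was a separate vial of ES cells. Forskolin and serum were common to control and stimulated cultures.

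IL-1β signals through IL1R1 with its partner IL1RAP to NF-kB and JNK, and IL-6 through IL6RA with IL6ST (gp130) to JAK kinases and STAT3. Motor neurons are cholinergic neurons specified by the transcription factors ISL1, LHX3 and MNX1, and they depend on trophic factors that act through receptors such as RET and LIFR. Astrocytes that respond to cytokines can become harmful to neurons, and the study used co-culture to ask whether they affect motor neuron survival through contact.

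Sequencing depth ran from 80315 to 19717324 counts. In the order A to D, control samples held 1280778, 19717324, 240859 and 2383502 counts, and IL-1β and IL-6 samples held 14329617, 80315, 6033138 and 146775. The same order, controls before the stimulated samples, is kept for every series of 8 values below, in CPM, which are counts scaled to effective library size. A single gene at 3 counts would read 12.4 CPM in control C, 36.0 CPM in stimulated B and 20.9 CPM in stimulated D, but 0.144 CPM in control B, so an absent gene means little in the shallow libraries. Genes with at least 1 count numbered 12173, 16274, 8885 and 11242 in controls and 18259, 6771, 12016 and 7892 in stimulated samples, with overlap between the groups.

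One library stood apart. Stimulated sample A had a mean Spearman correlation of 0.443 with the other 7 libraries over the 1707 genes averaging at least 100 CPM, where the others reached 0.619 to 0.726. That mean joins 0.793 with control B and 0.264 to 0.482 with the other 6. Stimulated A placed 3.85% of its counts on CT010467.1, a gene annotated as ribosomal RNA, which took 0.0906% to 0.878% in the other 7. It placed 0.814% on Actb, against 2.94% to 9.78% in them. A motor neuron sample of another treatment, IL-1α and TNF-α sample A, had 2.74% and 1.43% for the same genes. Medians of gene lists, and a number of genes that turned direction or moved far, are therefore given also without stimulated A.

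Motor neuron identity was visible in every library, and levels of identity genes overlapped between the groups. Mnx1, whose promoter drives the eGFP used for sorting, measured 1516, 1660, 770 and 517 CPM in controls and 2679, 505, 752 and 424 CPM in stimulated samples. Stimulated A was the highest of the 8 and the other 3 stimulated samples lay below the 3 higher controls. The log2 fold change was -0.02 (95% interval -1.16 to 1.12) and became -0.99 (-1.81 to -0.16) without stimulated A, with edgeR unadjusted p = 0.0205 and adjusted p = 0.898. In ES-astrocyte libraries of the same 2 treatments Mnx1 ran from 0 to 25.3 CPM, taken for that cell type over the library total.

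Isl1, a LIM homeobox factor of motor neurons, stood at 489, 175, 273 and 268 CPM against 129, 348, 305 and 236 CPM, with the highest value in a control and the lowest in stimulated A. Its log2 fold change was -0.27 (-1.15 to 0.62), and -0.03 without that sample. Lhx3, the partner of Isl1 in specification, read 0, 7.78, 4.14 and 0 CPM in controls and 19.3, 0, 9.74 and 27.8 CPM in stimulated samples. The groups overlapped through the 0 of stimulated B, and the log2 fold change of 2.26 had an interval from -0.43 to 4.95. Lhx4 had a log2 fold change of -0.39, Prph, a peripheral neuron filament, of 1.23, and Isl2 of 0.04 that became -0.75 without stimulated A.

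Of 12 motor neuron markers 11 were detected, and Tbx20 was seen in stimulated A alone. Their summed level was 2426, 2333, 1275 and 1581 CPM in controls and 3430, 1214, 1486 and 1182 CPM in stimulated samples, with Mnx1 taking the most counts. The sums overlapped (exact permutation p = 0.857). General neuron markers, 14 of 14 detected and led by Gap43, summed to 15213, 15036, 18874 and 20120 CPM against 14807, 16425, 23821 and 16324 CPM.

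Astrocyte markers were low beside the neuronal ones, and 10 of 13 were detected. Their sum was 517, 180, 203 and 363 CPM in controls and 59.3, 421, 132 and 382 CPM in stimulated samples, most of it from Sox9 at 463, 137, 195 and 316 CPM against 31.4, 348, 126 and 327 CPM. Aqp4, Aldh1l1 and Fgfr3 had 0 counts in all 8 libraries, and Gfap appeared only in control B, at 0.05 CPM. Fabp7, a glial fatty acid binding protein, lay at 4.14 to 27.8 CPM in motor neurons and at 665 to 2124 CPM in ES-astrocytes. Sox9 did not separate the cell types in that direction, since it ran from 20.2 to 118 CPM in ES-astrocytes. The log2 fold change of Sox9 between the motor neuron groups was -0.52, and -0.13 (-1.04 to 0.79) without stimulated A. Without the shallow libraries, control C and stimulated B and D, it was -1.92 (-3.60 to -0.24), with edgeR unadjusted p = 0.0292 and adjusted p = 0.99998. The median of the 3 astrocyte markers tested was -0.52, with -0.24 without stimulated A and -1.91 without the shallow libraries.

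Markers of other cell types were low, apart from those of cycling cells and neural progenitors. Of 11 ventral interneuron markers 6 were detected, led by Gad2, and they summed to 20.0 CPM in control A and to at most 3.20 CPM elsewhere, with Gad1, Slc32a1, Evx1, Gata2 and Pax2 at 0. Microglial genes came down to Csf1r alone (1 of 7), at most 11.4 CPM in a library, and Nanog, Dppa5a and Esrrb were the 3 of 7 pluripotency genes seen, together at most 0.116 CPM. Cycling genes, 9 of 10 detected and led by Pcna, summed to 94.9, 125, 133 and 101 CPM in controls and 92.4, 72.1, 140 and 62.6 CPM in stimulated samples, with Aurkb at 0. Neural progenitor markers, 9 of 10 and led by Vim, gave 396 to 723 CPM over the 8 samples, with Nkx2-2 at 0.

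Fibroblast genes, 5 of 9 detected and led by Acta2, reached 24.0 CPM in stimulated B and at most 4.19 CPM elsewhere, with Lum, Col1a2, Pdgfrb and Postn at 0. Oligodendrocyte lineage genes, 4 of 7 and led by Mbp, reached 33.1 CPM in control C, with Olig1, Cspg4 and Pdgfra at 0. Exact permutation p-values for the summed levels of all 10 marker lists between the groups were 0.143 or above.

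**Figure D1:**
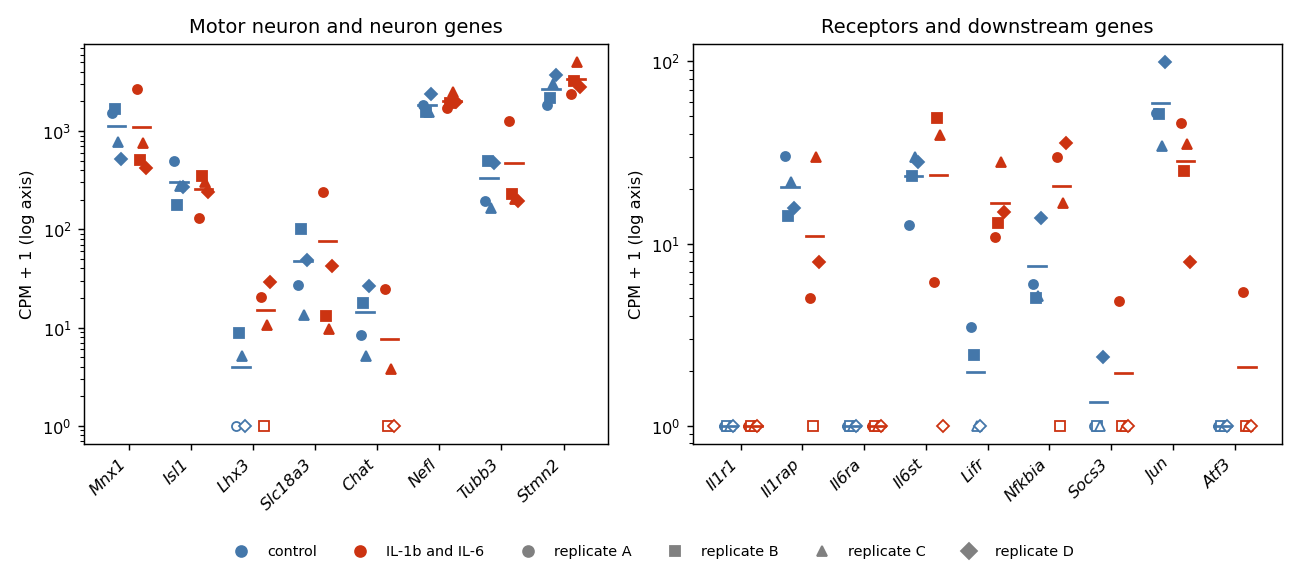
Levels of identity genes (left) and of receptor and signalling genes (right) in each library, as CPM plus 1 on a log axis, with blue for control, red for IL-1β and IL-6, a symbol per replicate, hollow symbols for 0 counts and a bar at each group mean. Mnx1 ran from 424 to 2679 CPM, and Il1r1 and Il6ra were at 0 in all 8 libraries.

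Across all genes, no difference between motor neurons from stimulated co-cultures and controls passed the edgeR test. The gene nearest to a difference was a long non-coding RNA inside Lrig2 that was absent from all stimulated samples, and the LIF receptor gene Lifr was higher in each stimulated sample than in any control. The receptor genes Il1r1, Il1r2 and Il6ra had no count, and the NF-kB, STAT3 and JNK target genes that could be tested overlapped between the groups. Tau (Mapt) lay higher in all 4 stimulated samples, while other cytoskeletal genes overlapped.

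By edgeR 0 of 8327 genes tested were called (0%), with 0 higher and 0 lower, and 98 genes (1.18%) had unadjusted p < 0.05, of which 33 (0.396%) were higher and 65 (0.781%) lower. The smallest adjusted p was 0.9999 and the median log2 fold change over all genes was -0.01. DESeq2 called 1 gene of 20534, with 232 at unadjusted p < 0.05, and limma voom called 0 with 265. With no filter on low counts edgeR called 0 of 21264, with 3282 at unadjusted p < 0.05 and a smallest adjusted p of 0.109. Without stimulated A, edgeR called 0 of 7851 genes, with 362 at unadjusted p < 0.05 and a smallest adjusted p of 0.107. Groups did not overlap at all for 40 genes higher (0.48%) and 117 lower (1.41%) in stimulated samples, and 63 of the 117 had no count in stimulated B or D.

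The precision of these fold changes depended on level. The 95% interval of log2 fold change had a median reach of 1.48 on either side of the estimate, and for 515 genes (6.18%) the whole interval lay between -1 and 1. No gene under 30 CPM on average had such an interval, against 39 of 2517 genes from 30 to 100 CPM and 284 of 1183 from 100 to 300 CPM. Nefl was among the 515, with a log2 fold change of 0.14 (-0.67 to 0.95).

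The gene DESeq2 called was A530041M06Rik, a non-coding transcript annotated at chr3:104499320-104501607 within an intron of Lrig2 on the same strand. It had 11, 242, 10 and 25 counts in controls, or 9.15, 11.6, 41.4 and 11.4 CPM, and 0 counts in all 4 stimulated samples. Controls and stimulated samples did not overlap, and over the groups the level was at least 89.7-fold lower in stimulated samples, taking 3 counts over that group as the floor, and at least 22.3-fold lower without stimulated A. DESeq2 gave a log2 fold change of -6.20 with adjusted p = 0.0343, and edgeR gave unadjusted p = 0.000129 with adjusted p = 0.9999. Floors and counting intervals here cover counting error only, because no molecular identifiers are named. Reads from unspliced Lrig2 and from this transcript cannot be told apart by position.

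Lifr, the receptor subunit that pairs with gp130 for LIF and related trophic factors, measured 2.50, 1.44, 0 and 0 CPM in controls and 9.84, 12.02, 27.2 and 13.9 CPM in stimulated samples. All 4 stimulated samples lay above all controls, although the values in stimulated B and D rest on 1 and 2 counts, beside 169 and 148 counts in A and C. The log2 fold change was 3.81 (1.27 to 6.35) with edgeR unadjusted p = 0.00522 and adjusted p = 0.9999, and 4.02 without stimulated A. Lifr is also the gene of smallest p among neurotrophic factor receptors.

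Among genes that ranked by smallest p and did not overlap between groups, 14 of the first 15 were lower in stimulated samples. Tor1b, a torsin ATPase of the endoplasmic reticulum, measured 60.8, 49.4, 78.7 and 131 CPM in controls and 15.3, 24.0, 28.1 and 27.8 CPM in stimulated samples. Mrps22, a mitochondrial ribosomal protein, measured 182, 115, 99.4 and 236 CPM against 79.5, 60.1, 45.6 and 62.6 CPM. For both genes every control exceeded every stimulated sample. The log2 fold changes were -1.79 (-2.95 to -0.64) for Tor1b and -1.36 (-2.28 to -0.44) for Mrps22, both with adjusted p = 0.9999 in edgeR.

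Fbxo28, which encodes an F-box protein of ubiquitin ligases, stood at 73.2, 31.2, 24.8 and 45.3 CPM in controls and 7.92, 0, 11.6 and 0 CPM in stimulated samples. Cpeb2, a regulator of mRNA translation, stood at 56.6, 25.5, 78.7 and 27.9 CPM against 5.65, 0, 13.8 and 0 CPM, and Sirt1, a deacetylase, at 35.0, 41.2, 95.2 and 24.7 CPM against 13.9, 0, 7.72 and 0 CPM. In all of these the groups were apart and the 0 values were the shallow samples B and D. The log2 fold changes were -2.55 for Fbxo28, -2.61 for Cpeb2 and -2.50 for Sirt1, the last at -3.09 without stimulated A. Slk (-3.59), Pcmtd1 (-2.47), Btaf1 (-2.60), Mob1b (-2.47), Zfp946 (-1.75), Fam196a (-2.07), Gm44509 (-3.99) and the Wnt co-receptor Ryk (-1.64) make up the remainder. Without stimulated A Pcmtd1 became -3.13 and Ryk -2.30, and Gm44509 had no count left in stimulated samples. Without the shallow libraries Ryk was -0.92 (-2.38 to 0.54), Sirt1 -1.63 (-3.38 to 0.11) and Pcmtd1 -2.05 (-3.81 to -0.29). Annotated genes on the same or the opposite strand overlap Cpeb2, Slk, Sirt1, Mrps22, Pcmtd1, Fam196a, Gm44509, Mob1b and Ryk, as Lrig2 does A530041M06Rik.

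**Figure D2:**
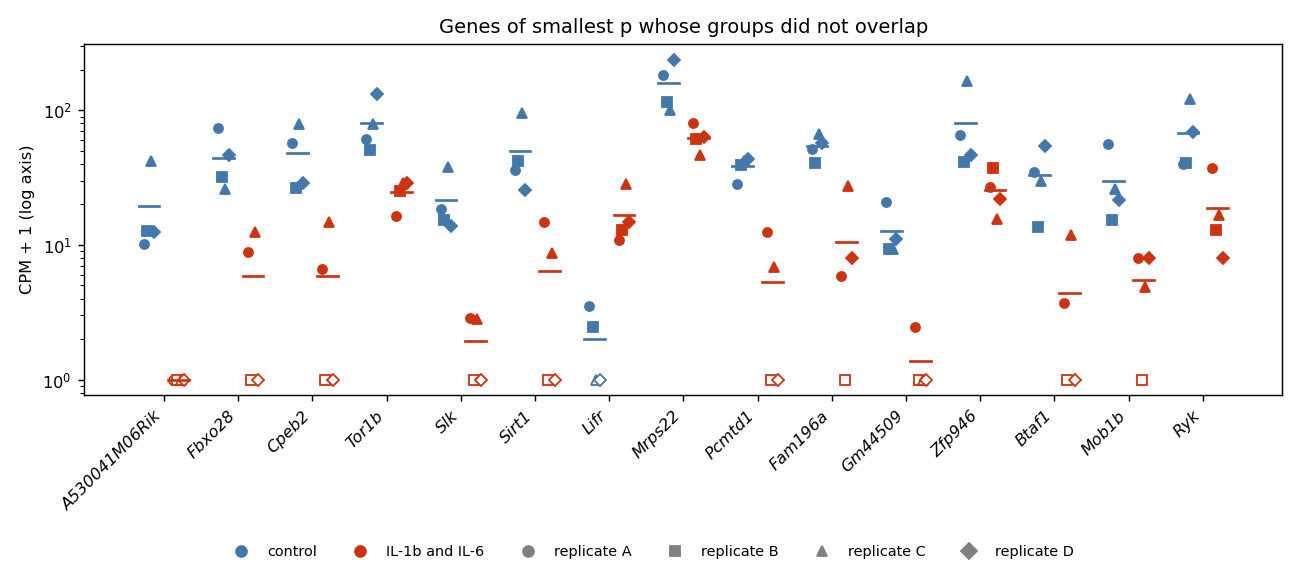
Levels in each library of the 15 genes of smallest unadjusted p whose groups did not overlap, as CPM plus 1 on a log axis, with blue for control, red for IL-1β and IL-6, a symbol per replicate and hollow symbols for 0 counts. Lifr, at 0 to 2.50 CPM in controls and 9.84 to 27.2 CPM in stimulated samples, is the gene that lay higher.

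Receptors for the cytokines come first among the groups by role. Il1r1, the decoy receptor Il1r2 and Il6ra had 0 counts in all 8 motor neuron libraries, including control B, where 3 counts would be 0.144 CPM. Il1r1 and Il6ra were also at 0 in all 8 ES-astrocyte libraries, and Il1r2 was seen in 1 of them at 3.43 CPM. Il1rap, the accessory chain for IL-1, measured 29.1, 13.2, 20.7 and 14.6 CPM in controls and 4.02, 0, 28.8 and 6.95 CPM in stimulated samples. Stimulated A, B and D were under all controls and C was near the top of them, with a log2 fold change of -0.64 (-2.54 to 1.25).

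Il6st, the shared signalling chain, stood at 11.7, 22.6, 29.0 and 27.0 CPM against 5.12, 48.1, 38.2 and 0 CPM, so the stimulated samples held both the highest and the lowest values, and its log2 fold change was -0.05 (-1.90 to 1.80), turning to 0.38 without stimulated A. Stat3 had 57.4, 68.6, 41.4 and 27.0 CPM in controls and 58.6, 60.1, 66.9 and 55.6 CPM in stimulated samples, within the range of the controls, with a log2 fold change of 0.31. Of 14 receptor and transducer genes 11 were detected and 8 tested, 2 of them positive and 6 negative, with a median of -0.25 beside -0.01 over all genes, and -0.11 beside -0.11 without stimulated A. That median ran from -0.81 to 0.10 with each sample left out in turn, so its direction was not stable. Jak1 was at -0.23, Irak1 at -0.65 and Ptpn11 at 0.31.

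Of 16 NF-kB factors and targets 10 were detected, and 2 had enough counts to test. Nfkbia, the inhibitor that NF-kB itself induces, measured 4.99, 4.03, 4.14 and 12.8 CPM in controls and 28.8, 0, 15.6 and 34.8 CPM in stimulated samples. Stimulated A, C and D exceeded all controls and stimulated B had no count. The log2 fold change was 1.64 (-0.36 to 3.64), edgeR unadjusted p = 0.103, and 1.38 without stimulated A. Sod2, a mitochondrial superoxide dismutase induced by NF-kB, had a log2 fold change of 0.27 (-0.51 to 1.05), while Il6, Cxcl1, Cxcl10, Icam1, Lcn2 and Relb had no count in any of the 8 libraries. Ccl2, Birc3 and Nfkbiz appeared in stimulated A alone, at 0.87, 0.81 and 5.18 CPM.

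The promoter of Nfkbia is shown because it is the inducible NF-kB target with the largest fold change that was tested. The NF-kB motif, which is the sequence in capitals below with any base allowed at the sixth position, was searched on both strands in promoters of 300 bases. It occurred in 135 of 32851 promoters (0.411%) and in those of Il6, Cxcl1, Nfkbia and Nfkb2 among the 11 of 16 NF-kB genes with a promoter in the table. In the RefSeq GRCm38.p6 sequence at chr12:55492598-55492897, read on the minus strand, the promoter of Nfkbia is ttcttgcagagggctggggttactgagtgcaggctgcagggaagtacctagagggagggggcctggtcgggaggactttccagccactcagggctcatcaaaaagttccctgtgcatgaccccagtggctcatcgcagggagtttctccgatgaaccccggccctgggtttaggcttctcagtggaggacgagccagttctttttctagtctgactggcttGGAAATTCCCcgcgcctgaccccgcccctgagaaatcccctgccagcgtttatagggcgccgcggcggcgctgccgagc. The capitals mark the match, and a match is a description, not a site.

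Targets of STAT3 gave no count of Serpina3n or Fosl1, and Socs3, the feedback inhibitor of gp130, was seen in control D at 1.37 CPM and in stimulated A at 3.84 CPM alone. Pim1, a kinase gene induced by STAT3, measured 35.8, 28.0, 33.1 and 87.0 CPM in controls and 1.63, 48.1, 28.8 and 76.5 CPM in stimulated samples, which overlapped. Its log2 fold change was -0.52 and that of Klf6 -0.26, the 2 of 12 genes tested, and they became 0.02 and -1.58 without stimulated A. Osmr, Cebpb and Bcl3 had counts in stimulated A alone.

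The JNK pathway and its AP-1 targets were looked at because the study followed phosphorylated c-Jun in its ES-astrocytes. Jun measured 50.8, 50.5, 33.1 and 98.0 CPM in controls and 44.7, 24.0, 34.2 and 6.95 CPM in stimulated samples. Stimulated B and D lay below all controls and A and C within them. Its log2 fold change was -0.94 (-2.15 to 0.27), edgeR unadjusted p = 0.122, and -1.26 without stimulated A. Of 19 genes in the list 18 were detected and 13 tested, 4 positive and 9 negative, with a median of -0.12 beside -0.01 over all genes, which became -0.29 beside -0.11 without stimulated A.

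The kinases upstream of Jun overlapped between the groups, with log2 fold changes of -0.32 for Map3k12 (DLK), 0.42 for Map3k13 (LZK), -0.02 for Mapk8 (0.25 without stimulated A) and -0.31 for Mapk9. Atf3, a marker of injured neurons, and the early response genes Junb and Fos were seen in stimulated A at 4.42, 1.40 and 4.77 CPM, and elsewhere only as Fos in control D at 1.37 CPM. Fosb had no count. In the axon injury list 12 of 16 genes were detected and 6 tested, and Sprr1a, Npy, Vip and Crh were at 0. The median of -0.63 was -0.78 without stimulated A, reached -0.27 with another sample left out and was -0.21 over 8 genes without the 3 shallow libraries, control C and stimulated B and D. Sox11, which took the most counts among injury genes, stood at 30334, 15788, 21967 and 10129 CPM against 7524, 12088, 17623 and 15775 CPM, overlapping, at -0.56 (-1.57 to 0.45).

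Death genes were detectable, with 23 of 23 apoptosis and p53 genes seen and 17 tested, 8 positive and 9 negative, and a median of -0.03 that became -0.39 without stimulated A. Trp53 (p53) measured 9.99, 26.8, 0 and 16.9 CPM in controls and 65.3, 12.02, 36.4 and 41.7 CPM in stimulated samples. Stimulated A, C and D were above all controls and B was within them, at a log2 fold change of 1.48 (-0.09 to 3.06). Among its target genes Cdkn1a was at -0.14, Mdm2 at -0.22 and Bax at 0.01, and Bbc3 and Pmaip1 were too sparse to test. With stimulated A left out Cdkn1a came to -3.57 (-6.59 to -0.54), resting on 2, 3 and 0 counts in B, C and D, and Bax to -0.51. The survival gene Bcl2 was at -1.91 (-4.72 to 0.91), or -2.79 without that sample, and Casp9 at 0.23.

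Receptors and effectors of other death routes were sparse, with 12 of 14 detected and 6 tested at a median of 0.09, which turned to -0.37 without stimulated A. Ripk3 and Mlkl, the necroptosis pair, had no count in any library, and Tnfrsf1a and Casp8 were seen in stimulated A alone. Fadd, the death receptor adaptor, measured 27.5, 16.7, 8.28 and 43.9 CPM in controls and 6.23, 36.0, 5.14 and 6.95 CPM in stimulated samples, with stimulated A, C and D below all controls, at -1.37 (-3.36 to 0.62). Gsdme, a gasdermin, overlapped at 0.08 (-0.82 to 0.98), and Sarm1, an axon degeneration NADase, at 0.21 turned to -3.02 (-8.72 to 2.68) without stimulated A, where 1 count was left.

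Stress programmes overlapped too. For ER stress 16 of 19 genes were tested, 11 positive and 5 negative, with a median of 0.07 that became -0.39 without stimulated A. Canx, a lectin chaperone, measured 1213, 659, 2460 and 1651 CPM in controls and 148, 1922, 2186 and 2065 CPM in stimulated samples, where A was the lowest of the 8 and the others lay among the upper values. Hspa5 was at -0.42, Hsp90b1 at 0.44, Eif2ak3 (PERK) at -0.98 and Ddit3 (CHOP) at -0.70.

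Antioxidant genes were tested in 13 of 18 cases, 11 positive and 2 negative, with a median of 0.21 and a range of 0.10 to 0.43 when any single sample was left out. Gpx4, which guards against lipid peroxides, was at 0.66, Prdx1 at 0.31 and Sod1 at -0.06, and the first and last turned to -0.16 and 0.17 without stimulated A. Hmox1 appeared in control A at 2.50 CPM and in stimulated A at 11.3 CPM. Heat shock genes, 9 of 14 tested, had a median of -0.11 (-0.23 without stimulated A), and the inducible Hspa1b had no count.

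The cytoskeleton of neurites gave the gene of smallest p among neuronal lists other than neurotrophic factor receptors. Mapt, which encodes tau, measured 110, 124, 91.1 and 100 CPM in controls and 200, 180, 255 and 132 CPM in stimulated samples, so each stimulated sample exceeded each control. Its log2 fold change was 0.87 (0.06 to 1.67), edgeR unadjusted p = 0.0356 with adjusted p = 0.9999, and 0.85 without stimulated A.

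Of 22 cytoskeletal genes all 22 were tested, 17 positive and 5 negative, and the median of 0.34 became -0.14 without stimulated A. Tubb3 stood at 192, 492, 166 and 477 CPM against 1263, 228, 204 and 195 CPM, with stimulated A far above the others and the remaining stimulated samples among the lower controls. Its log2 fold change of 0.54 became -0.70 without that sample. Nefl, the light neurofilament, measured 1821, 1559, 1569 and 2388 CPM against 1725, 1922, 2480 and 1975 CPM, overlapping, and Map1b was at -0.53, Stmn2 at 0.33 and Gap43 at -0.05, the last 0.05 without stimulated A.

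Axon transport genes, 14 of 15 tested, had 4 positive and 10 negative values with a median of -0.12, from Nmnat2 at -1.03 to Trak1 at 0.66, and Dync1h1, the dynein heavy chain, at -0.83 (-1.83 to 0.17). Without stimulated A the median was -0.21, Nmnat2 came to -2.18 (-3.94 to -0.42) and Dync1h1 to -1.38 (-2.45 to -0.31), with adjusted p = 0.843 and 0.802 in edgeR. Kif1a, a kinesin of vesicle transport, went from -0.46 to -1.58 (-3.06 to -0.10) in the same way. Without the shallow libraries Nmnat2 was -0.42 (-2.23 to 1.39) and Dync1h1 -0.49 (-1.80 to 0.82), both nearer to 0 than with all samples.

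Guidance genes, 14 of 18 tested, had a median of -0.26, and -0.04 without stimulated A. Plxna2, a semaphorin receptor, measured 17.5, 17.7, 8.28 and 23.3 CPM in controls and 5.995, 0, 0 and 0 CPM in stimulated samples, all below the controls. Plxna2 had a log2 fold change of -2.74 (-5.33 to -0.15), edgeR unadjusted p = 0.0391 with adjusted p = 0.9999. The other 3 stimulated samples had no count of it, a level at least 34.2-fold lower than in controls when 3 counts over them are the floor. That floor rests on stimulated C, since 3 counts would read 36.0 CPM in B and 20.9 CPM in D. Without the shallow libraries Plxna2 was -2.70 (-6.25 to 0.86), with edgeR unadjusted p = 0.121. Robo1 was at -0.39, Dcc at -0.53 and Slit3 at 0.55, the last 0.01 without stimulated A.

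Among cholinergic genes Chat, which makes acetylcholine, measured 7.49, 16.9, 4.14 and 25.6 CPM in controls and 23.9, 0, 2.76 and 0 CPM in stimulated samples, overlapping, at -0.62 (-2.77 to 1.53). Slc18a3, the vesicular acetylcholine transporter nested within Chat on the same strand, stood at 25.8, 101, 12.4 and 47.6 CPM against 238, 12.02, 8.64 and 41.7 CPM, with A the highest of the 8 and B and C the lowest. Its log2 fold change of 0.77 became -1.49 without stimulated A. Of 10 cholinergic genes 6 were tested, and the median of 0.29 became -0.17 without that sample. Chrnb2, a nicotinic receptor subunit, went from -0.32 to -2.41 (-4.17 to -0.66), and Slc5a7, the choline transporter, from 0.15 to 0.40.

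Synaptic vesicle genes, 12 of 18 tested, had 10 positive and 2 negative values with a median of 0.35 beside -0.01 over all genes. That median was 0.27 without stimulated A and ran as low as 0.05 with another sample left out. Syn1 at 1.43, Vamp2 at 1.38 and Rab3a at 0.95 led, and each interval included 0. Without stimulated A Vamp2 came to 0.35 and Rab3a turned to -0.27. Transmitter receptors were thinner, with 6 of 19 tested and a median of -0.23 that was -0.10 without it. The direction of that median was not stable, since it reached 0.14 with another sample left out and 0.50 over 14 genes without the 3 shallow libraries. Gria2, an AMPA receptor subunit, was at -0.37 and Glrb at -0.37, while Grin1, the obligate NMDA receptor subunit, was seen in stimulated A alone at 0.06 CPM.

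Neurotrophic factor receptors, 8 of 13 tested, had 7 positive values and 1 negative, with a median of 0.67. It was 0.46 without stimulated A, 0.11 at the lowest with another sample left out and 1.15 without the 3 shallow libraries. Besides Lifr these included Ret, the GDNF receptor kinase, at 0.83, 14.5, 45.6 and 22.0 CPM in controls and 20.4, 12.02, 114 and 27.8 CPM in stimulated samples, which overlapped, at 1.37 (-0.39 to 3.14). Cntfr was at 1.88, carried by 79.0 CPM in stimulated A, Ntrk3 at 0.81 and Ngfr, the p75 receptor, at 0.54.

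**Figure D3:**
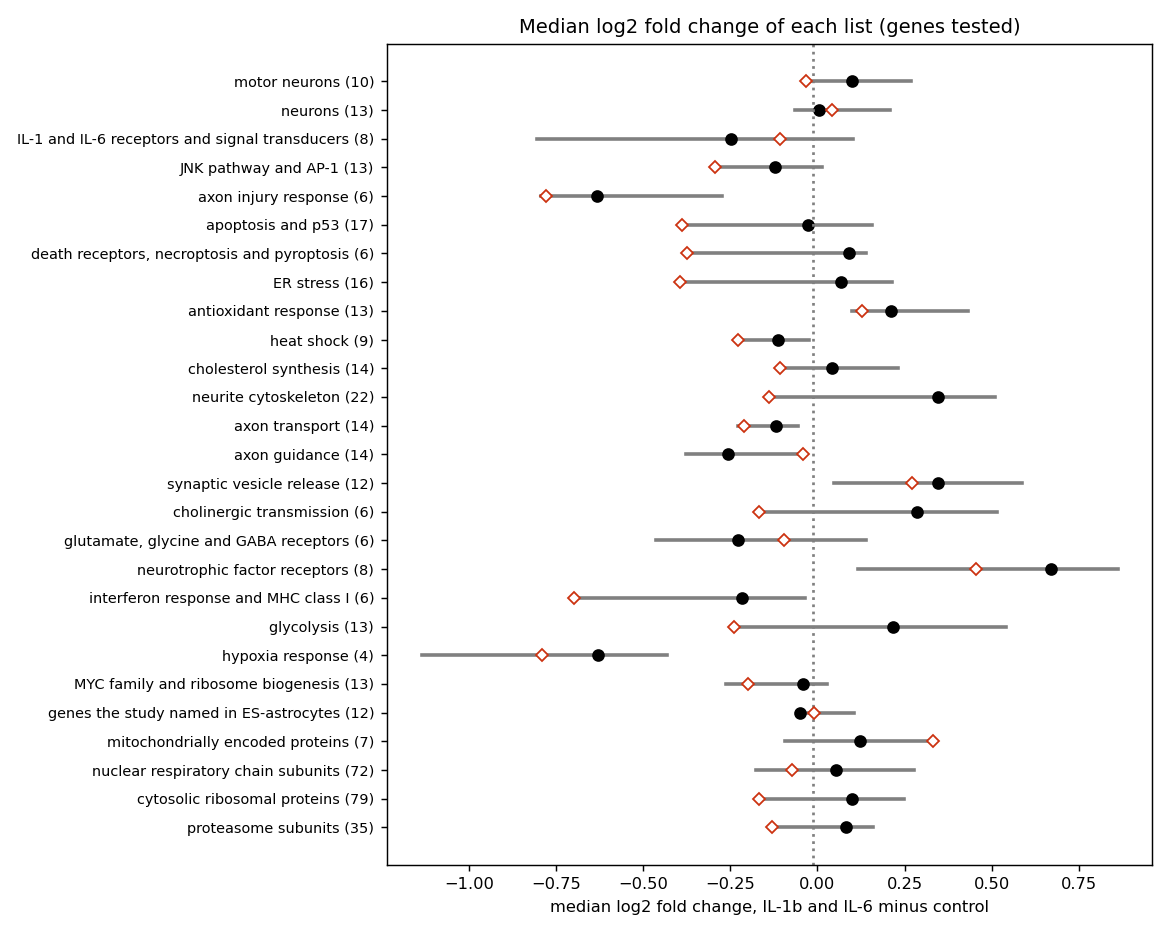
Median log2 fold change (IL-1β and IL-6 over control, horizontal axis) of each gene list, with the number of genes tested in brackets, a black dot for all 8 samples, a grey bar for the range when each sample is left out and an open red diamond without stimulated A. Neurotrophic factor receptors lay at 0.67 and the axon injury response at -0.63, beside a dotted line at -0.01 for all genes.

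Leaving out control C and stimulated B and D, the shallow libraries, kept 3 controls and stimulated A and C, so A then weighs more. More genes also passed the filter, so many medians cover other gene sets than before. STAT3 targets had 5 genes tested in place of 2, neural progenitor markers 6 in place of 2 and complement genes 6 in place of 3. Several medians turned direction there, to 0.57 for STAT3 targets (from -0.39), -0.86 for neural progenitor markers (from 0.14), 0.13 for receptors and transducers, 0.34 for apoptosis and p53 genes, 0.10 for heat shock, 0.03 for MYC family genes, 0.21 for the list the study chose and -0.27 for nuclear respiratory subunits. Others grew, to 0.39 for ER stress, 0.38 for antioxidant, 0.32 for cholesterol, 0.48 for cytoskeletal, 0.41 for synaptic vesicle, 0.37 for cholinergic, 0.49 for glycolysis, 0.99 for complement, 0.22 for mitochondrially encoded and 0.19 for proteasome genes, beside 0.07 over all genes. Those of the JNK pathway at -0.06, of interferon genes at -0.07 and of ribosomal proteins at 0.01 came nearer to 0.

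Among metabolic genes glycolysis had 13 of 16 genes tested, 10 positive and 3 negative, with a median of 0.22 that became -0.24 without stimulated A. Ldha, lactate dehydrogenase A, measured 5.83, 9.75, 0 and 8.70 CPM in controls and 48.2, 36.0, 20.9 and 0 CPM in stimulated samples. Stimulated A, B and C were above all controls and D had no count, at a log2 fold change of 1.99 (-0.01 to 3.99), or 1.41 without stimulated A. Gapdh at 1.23 became 0.02 without stimulated A. Eno1, an enolase, went from -0.25 to -4.96 (-7.40 to -2.52) when that sample was left out, with 0, 7 and 0 counts in B, C and D beside 1568 in A.

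Hypoxia genes, 4 of 14 tested, were negative in all 4, with a median of -0.63 that was -0.79 without stimulated A. Without the 3 shallow libraries 9 were tested and the median was -0.03. Car9, Egln3 and Adm had no count. Kdm3a, a histone demethylase induced by low oxygen, measured 42.4, 59.4, 29.0 and 87.0 CPM in controls and 15.7, 24.0, 19.1 and 27.8 CPM in stimulated samples, each below the controls. The log2 fold change of Kdm3a was -1.47 (-2.72 to -0.21), edgeR unadjusted p = 0.024 with adjusted p = 0.9999, and -1.33 (-2.70 to 0.04) without stimulated A.

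Cholesterol synthesis split evenly, 7 positive and 7 negative among 14, at a median of 0.04 that was -0.11 without stimulated A. Dhcr7, which acts at the last step, measured 11.7, 33.1, 4.14 and 38.5 CPM against 112, 36.0, 45.4 and 27.8 CPM, overlapping, at 1.34 (-0.02 to 2.69) and 0.67 without that sample.

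Large housekeeping lists come next. Cytosolic ribosomal proteins had a median of 0.10 over 79 genes, respiratory chain subunits coded in the nucleus 0.05 over 72, proteasome subunits 0.08 over 35 and mitochondrially encoded proteins 0.12 over 7. Without stimulated A these became -0.17, -0.07, -0.13 and 0.33 in the same order. MYC family and ribosome biogenesis genes had a median of -0.04 over 13 genes (-0.20 without stimulated A), with Mycn at 0.20. Mycl went from -0.47 to -3.46 (-6.75 to -0.16) without that sample, where 3 counts were left. A list the study chose, 14 genes it named in ES-astrocytes, had 12 tested in these motor neurons with a median of -0.05 (-0.01 without it), from Hspa5 at -0.42 to Ldha at 1.99.

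Interferon and MHC class I genes, 6 of 18 tested, had 1 positive and 5 negative values with a median of -0.22, or -0.70 without stimulated A. Complement genes, 3 of 16 tested, had a median of 0.43, with 0.32 without stimulated A and up to 1.10 with another sample left out. The C1 inhibitor Serping1 was at 1.33 (-0.55 to 3.21).

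Beside the stimulated ES-astrocytes themselves, the response of motor neurons was compared as a difference of differences over 16 libraries. By edgeR 0 of 12104 genes were called (0%), 552 (4.56%) had unadjusted p < 0.05, 314 positive and 238 negative, and the smallest adjusted p was 0.452. DESeq2 called 19 genes, with 567 at unadjusted p < 0.05, and limma voom called 0, with 646. Lifr stood at 4.69, Ldha at 3.40, Plxna2 at -2.81, Nfkbia at 0.81 and Mapt at 0.06 on this log2 scale, where the median interval reached 3.62 on either side.

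Against motor neurons from co-cultures given IL-1α and TNF-α, edgeR called 0 of 3252 genes (0%), with 26 (0.8%) at unadjusted p < 0.05, and DESeq2 and limma voom called 0 with 83 and 193. Without stimulated A edgeR called 0 of 2574 genes, with 199 at unadjusted p < 0.05. With the replicate letter as a block it called 0 with 237. The IL-1α and TNF-α libraries were shallow, with 117344, 445874, 300549 and 112775 counts in A to D. The log2 fold change of IL-1β and IL-6 over them was -1.04 for Mrps22 and -0.03 for Mapt. The smallest adjusted p of all genes was 0.9998 in edgeR. The plate index of the libraries was 1 for control and IL-1α with TNF-α and 2 for IL-1β with IL-6, C1Q with C5 and TGF-β2. Index and stimulus therefore cannot be told apart in the comparison with control or in that with IL-1α and TNF-α.

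A comparison within plate index 2, chosen after the data were seen, set the stimulated samples against the mean of the C1Q with C5 and the TGF-β2 motor neurons. By edgeR 0 of 8315 genes were called (0%) and 274 (3.3%) had unadjusted p < 0.05, 180 higher and 94 lower, and DESeq2 and limma voom called 0 with 209 and 350. Without stimulated A edgeR called 0 with 482. Without libraries under 10% of the median total it called 0 with 559 and a smallest adjusted p of 0.0739. The C1Q with C5 sample A held only 6557 counts. The 4 stimulated libraries are the same as in the comparison with control, so the values within plate index 2 are not independent of that comparison. A530041M06Rik had too few counts to be tested. Of the other 13 lower genes among the 15 described above, Gm44509 at -4.42 was farther from 0 than against control and 12 were nearer. These 12 ran from Slk at -2.80, Cpeb2 at -2.31, Btaf1 at -2.21 and Fbxo28 at -2.20 through Tor1b at -1.43 and Mrps22 at -0.98 to Zfp946 at -0.61. Plxna2 at -2.68 and Kdm3a at -1.31 were also nearer to 0. These genes, like Lifr, Nfkbia and Mapt below, were picked by small p against control. Values nearer to 0 in another comparison can follow from that choice alone, so nothing is concluded from them.

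Genes with positive values against control went both ways within plate index 2. Lifr came to 0.72 (-1.49 to 2.93), Nfkbia to 0.46 and Mapt to 0.39, each nearer to 0. Ret at 1.75 (0.41 to 3.08), Trp53 at 1.49 (0.14 to 2.85), Dhcr7 at 1.48 (0.39 to 2.56), Rab3a at 1.48 (0.36 to 2.59), Gpx4 at 1.22, Serping1 at 1.97 and Ldha at 2.13 were farther from 0, with adjusted p = 0.9998 in edgeR. Bcl2 turned to 2.25 (-0.87 to 5.37), and Mnx1 at 0.88, Eif2ak3 at 0.35, Isl1 at 0.30 and Sox11 at 0.03 turned from negative to positive too. All these values include stimulated A, and values of single genes without it are not given for plate index 2. Against control without it, Mnx1 was -0.99, Rab3a -0.27 and Gpx4 -0.16. Ret at 1.71, Ldha at 1.41, Trp53 at 1.09, Serping1 at 0.86 and Dhcr7 at 0.67 stayed positive there.

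These are bulk libraries of sorted cells, so fewer cells and less RNA per cell cannot be told apart, and cells that died before sorting left no counts. Shares of dying neurons and protein phosphorylation were not measured by these data.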

How the data were processed

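Polyadenylated RNA from about 200 sorted cells per sample was sequenced by the authors, who deposited unnormalized whole-number counts for each Ensembl gene, with a column for each sample. The submitters' processing notes name STAR and DESeq2, and which genome build, annotation, counting tool and strand setting they used was not given in the sources used here. Columns were assigned through the sample sheet and labels, and all 40 were placed. The table has 55487 genes. Symbols and coordinates came from GENCODE M21 (GRCm38), and 260 genes without a symbol held 0.117% of counts.

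The 4 IL-1β and IL-6 motor neuron samples were tested against 4 controls with edgeR 4.0.16 in R 4.3.3 on all genes kept by filterByExpr, with TMM factors, robust dispersions and quasi-likelihood F-tests. A gene was called at Benjamini-Hochberg adjusted p of 0.05 or less with absolute log2 fold change over 1. The common dispersion was 0.422 and the median standard error of log2 fold change 0.711. CPM are counts over total times TMM factor, and ES-astrocyte CPM are over the library total alone. Library measures and marker sums were compared by exact permutation of all splits of 8 samples. Where a gene had 0 counts, the floor was set at 3 counts.

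The rule for named genes took any called gene, the 15 of smallest p whose groups did not overlap in CPM, the 2 of smallest p in each list, and identity, receptor and signalling genes. The other list members whose values are printed were chosen after values were seen. The members and lists were chosen with earlier results of these data known.

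Alternatives tried were DESeq2 1.42.0, limma 3.58.1 with voom and quality weights, RLE factors, a stricter filter, no filter, non-robust dispersions, a replicate block, a plate row term, all 20 motor neuron libraries in 1 fit, each library left out in turn, no library under 10% of the median total of 2459460.5 counts, and CPM without TMM. The comparison within plate index 2 was added after the data were seen. Detection at equal depth used vegan 2.7.1, and the fit was tested on simulated data.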

Additional observations from a re-analysis of the deposited data

Results flagged for a closer look

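Each of 218 groups of 4 replicates was checked for a value that stood far from the other 3, and 37 values did, where chance gives about 1 in 20 groups. That rate does not hold where the other 3 values were all 0, since any count then stands apart. In IL-1β and IL-6 sample A, Gm44509, Plxna2, Atf3 and the sums of ventral interneuron and pluripotency markers are of that kind. So are Slc1a3 in control A and in IL-1β and IL-6 sample D, and the pluripotency sum in control B. IL-1β and IL-6 sample A held 20 of the 37.

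In that sample these were Mnx1 at 2679 CPM, Tubb3 at 1263, Psmc1 at 470, Atp5d at 255, Slc18a3 at 238, Tubb2a at 125.3, Gapdh at 124.8, Cntfr at 79.0, Chat at 23.9, Plxna2 at 5.995, Atf3 at 4.42 and Gm44509 at 1.46. Its motor neuron markers summed to 3430 CPM, and its ventral interneuron and pluripotency markers to 0.116 CPM each. It had 8563 genes at common depth, 22.6% of counts on the top 50 genes, 92.0% on protein coding genes, 3.85% on CT010467.1 and a mean Spearman correlation of 0.443.

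In the other stimulated samples they were Fadd at 36.0 and Psmb10 at 12.02 CPM in B, Sod2 at 318.6 and Ret at 114.3 CPM in C, and Slc1a3 at 20.9 and Ngfr at 6.95 CPM in D. In controls they were Gm44509 at 20.0, Slc1a3 at 3.33 and summed ventral interneuron markers at 20.0 CPM in A, the total of about 19717300 counts and pluripotency markers of 0.0960 CPM in B, Vim at 675.0, A530041M06Rik at 41.4, Ednrb at 4.14 and summed progenitor markers at 720.5 CPM in C, and Pim1 at 87.0 and Nfkbia at 12.8 CPM in D. The cause was not tested.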

How the results depend on the processing

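Among 84 named genes 26 turned direction in at least 1 setting, all with log2 fold changes whose intervals included 0. Of all values for named genes, 1434 kept their direction and side of the threshold, 55 turned, and 1 passed the threshold, A530041M06Rik in DESeq2. Of list medians 360 stayed within the spread and 11 moved. Without IL-1β and IL-6 sample A edgeR still called 0 genes.

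With DESeq2 the calls were 1 against control and 19 for the difference between cell types, Vim was 0.0126 and Mnx1 0.0513. With voom Tubb3 was -0.0111, Vim 0.16, Mbp 0.17, Cat -0.21, Slc10a4 -0.11, Slc18a3 -0.43 and Srm -0.19. With RLE factors Vim was 0.0195 and Mnx1 0.0561, with the stricter filter 0.00153 and 0.0163, and with a plate row term Mbp was 0.0409. Without filter edgeR called 0 of 21264 genes against control, with 3282 at unadjusted p < 0.05 and a smallest adjusted p of 0.109, and the comparison within plate index 2, chosen after seeing the data, had 5 calls. Without TMM the difference in summed motor neuron markers was 100.5 CPM.

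Without the shallow libraries Mnx1 was 0.46, Il6st 0.13, Nkx6-1 -0.0495, Pcna 0.32, Mbp 1.31, Klf6 0.57, Hsph1 0.26, Dnaja1 0.00406 and mt-Nd2 -0.17, and edgeR called 0 of 11771 genes, with 247 at unadjusted p < 0.05.

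Leaving out each sample in turn gave these lowest and highest log2 fold changes. Identity and signalling genes ran from -0.99 to 0.27 for Mnx1, -0.47 to 0.0692 for Isl1, -0.92 to 0.38 for Il6st, -1.18 to 0.0245 for Pim1, -1.58 to 0.0275 for Klf6, -0.57 to 0.0643 for Fabp7, -0.13 to 0.14 for Vim, -0.85 to 0.72 for Mbp and -1.28 to 0.0659 for Mcm2. Neuronal genes ran from -0.70 to 0.84 for Tubb3, -0.27 to 1.34 for Rab3a, -0.17 to 0.87 for Slc10a4 and -1.49 to 1.51 for Slc18a3. Metabolic genes ran from -0.16 to 1.08 for Gpx4, -0.87 to 1.03 for Cat, -0.0146 to 0.75 for Fdft1, -0.31 to 1.89 for Atp5d, -0.17 to 0.63 for Psmc1, -0.19 to 0.98 for C1qbp, -0.53 to 0.0912 for Nop58 and -0.36 to 0.49 for Srm.

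Leaving out each library gave 0 to 2 calls for the difference between cell types. Differences of group means, stimulated minus control, ran from -3818870 to 3845750 in total counts, -3250.5 to 578.8 in genes detected, -513.0 to 121.3 in genes at common depth, -0.0617 to 0.484 in percent ribosomal protein and -1.92 to 1.68 in percent on the top 50 genes. In summed CPM they ran from -609.9 to 139.5 for motor neuron, -1458.6 to 1546 for neuron, -124.1 to 0.261 for astrocyte, -26.8 to 82.1 for progenitor and -0.0240 to 0.0291 for pluripotency markers.

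The letters mark biological replicates, for which the study's definition is a vial of ES cells, and whether the same vial served both groups is not stated. Same-letter correlations were -0.0556, -0.115, 0.127 and 0.0112 for A to D, not every sample correlated best with its own letter, and the highest of all was 0.394, between stimulated A and control B. With the letter as a block edgeR called 0 genes, with 108 at unadjusted p < 0.05. The cause was not tested.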
